A study of Homo sapiens with 6 samples.

Results

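The IL-6 family of cytokines was examined after knockdown of TAZ in HFL-1, a fibroblast line derived from the lung of a human fetus. The family was taken as 10 genes matched by symbol in the deposited table, out of 23355 gene symbols: the ligand genes IL6, IL11, LIF and CLCF1, the receptor genes IL6R, IL6ST, OSMR and LIFR, and the signaling genes STAT3 and SOCS3. Cells received a non-targeting control siRNA (siNTC) or one of 2 siRNAs against TAZ (siTAZ #1 and siTAZ #2), and RNA was taken 48 h later from 2 libraries per group, 6 in all. No group was left without transfection, and all libraries come from 1 cell line. The study states that the TAZ siRNAs were transfected in duplicate, and gives no such statement for siNTC. Neither the study nor the labels say whether replicates came from separate days. The tests thus measure only the spread between these libraries. The family was chosen by the measured counts of IL6R, which differed between the siRNAs. IL6R and the differences between siTAZ #1 and siTAZ #2 are therefore described without a test, and the other 9 genes were tested against siNTC.

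IL-6 family cytokines signal through gp130, the shared receptor chain encoded by IL6ST. IL-6 and IL-11 first bind their own receptor chains, while LIF pairs gp130 with the LIF receptor and oncostatin M pairs it with the oncostatin M receptor or the LIF receptor. The assembled receptor activates JAK kinases, which phosphorylate the transcription factor STAT3. STAT3 in turn induces SOCS3, which binds gp130 and JAK and shuts the signal off. Fibroblasts are known as a source of IL-6, IL-11 and LIF in the lung, and as cells with much gp130 and little IL-6 receptor.

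The counts of a library summed to between 15648055 and 32078188 on genes with a symbol. Values are given as CPM, counts adjusted for library size with TMM factors, and as log2 fold changes. The latter come from edgeR's quasi-likelihood test, fitted to all 6 libraries at once, with the Benjamini-Hochberg FDR over the 14053 genes that passed the filter on low counts. All 10 members passed it. TAZ itself, listed as WWTR1, was at 132 and 131 CPM with siNTC, at 26.4 and 28.4 CPM with siTAZ #1 and at 46.1 and 43.1 CPM with siTAZ #2. Replicate 2 of siTAZ #1 has near-missing counts for the genes from RANGAP1 on chromosome 22 to the end of Y. This part of the genome held 576 of the genes tested and 0 members, but it widened the common dispersion of the fit, from 0.0163 without these genes to 0.0807 with them. The 8 fibroblast markers summed to 34431 to 34566 CPM with siNTC, 21750 to 22680 CPM with siTAZ #1 and 26708 to 28396 CPM with siTAZ #2. COL1A1, COL1A2, COL3A1 and VIM made up most of these sums, and the markers did not move as 1 block. In siNTC, siTAZ #1 and siTAZ #2, PDGFRB had means of 250, 327 and 365 CPM, and THY1 had 446, 433 and 629 CPM. COL1A1 had 9308, 5653 and 10680 CPM. The means of COL1A2, COL3A1, VIM, DCN and LUM were below siNTC with both siRNAs. DCN had 735, 464 and 243 CPM, and LUM had 116, 79.7 and 30.5 CPM. Of 6 leukocyte markers, CD68 had means (± SD, n = 2) of 74.4 ± 0.923, 72.1 ± 4.73 and 43.1 ± 7.43 CPM in the siNTC, siTAZ #1 and siTAZ #2 libraries, while the other 5, PTPRC among them, stayed under 1 CPM in every library. Of 10 epithelial, endothelial and hepatocyte markers, EPCAM and VWF were the ones to reach 1 CPM in any library. The part of these marker shifts in the results was not tested.

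The bases before the start of IL6, IL11 and IL6R are shown because these genes had the largest fold changes of the family. They were read from GRCh37, the build of the reads, before the start of the canonical GENCODE transcript, and end at the first exon of any transcript of the gene. Capitals mark matches to 1 of 5 motifs searched on both strands: the TEAD core GGAATG, the AP-1 core TGANTCA, the STAT core TTCNNNGAA, the NF-kB core (GGGA, any base, TTTCC) and the CRE TGACGTCA. IL6 is shown at chr7:22766569-22766765 on the plus strand, IL11 at chr19:55881832-55882081 on the minus strand and IL6R at chr1:154377569-154377668 on the plus strand.
IL6: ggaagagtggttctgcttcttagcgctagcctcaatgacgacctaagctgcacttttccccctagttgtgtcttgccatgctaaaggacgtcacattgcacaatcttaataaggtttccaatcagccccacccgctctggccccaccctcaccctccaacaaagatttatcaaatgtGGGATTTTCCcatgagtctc
IL11: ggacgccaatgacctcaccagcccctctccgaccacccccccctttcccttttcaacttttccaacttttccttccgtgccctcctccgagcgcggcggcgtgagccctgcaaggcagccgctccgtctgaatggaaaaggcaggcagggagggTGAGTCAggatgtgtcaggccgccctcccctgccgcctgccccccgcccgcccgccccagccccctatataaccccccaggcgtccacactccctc
IL6R: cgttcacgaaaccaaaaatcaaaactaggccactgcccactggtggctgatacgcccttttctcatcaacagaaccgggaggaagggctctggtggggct
Over the 250 bases before the start, the promoter of IL6 held the NF-kB core GGGATTTTCC from base -73 to base -64, which 0.479% of 19852 promoters of protein-coding genes hold. The promoter of IL11 held the AP-1 core TGAGTCA from base -96 to base -90, a core present in 4.7% of promoters. The STAT core, present in 5.68% of promoters, was in neither of them. The TEAD core, present in 9.83% of promoters, and the CRE, present in 2.4%, were found in 0 of the 10 members. The promoters of IL6R, CLCF1, IL6ST, OSMR, LIFR and STAT3 held none of the 5 motifs in this window. A match describes these letters only.

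Against siNTC, 4 of the 9 tested members rose with siTAZ #1, IL6, IL11, LIF and IL6ST, and 2 fell, STAT3 and SOCS3. Over all genes tested, 10.8% were called higher and 9.78% lower with siTAZ #1. With siTAZ #2, 3 of the 9 members rose, IL11, LIF and OSMR, against 14.1% of all genes called higher. The number called lower was 0, against 14.4% of all genes, and it was 0 as well at an unadjusted p under 0.05, in DESeq2 and in edgeR's exact test. The median log2 fold change of the 9 members was 0.56 with siTAZ #1 and 0.45 with siTAZ #2, and that of all genes tested was 0.02 and 0.01. The comparisons share the siNTC libraries. In bulk RNA, fewer cells that express a gene and less of its RNA per cell cannot be told apart. Counted by libraries alone and with IL6R included, both siTAZ #1 libraries lay above both siNTC libraries for 6 of the 10 members and below for 4, where 33.2% and 31.1% of all genes did so (64.3% in either direction). The siTAZ #2 libraries lay above for 6 and below for 1, where 36% and 35.5% of all genes did so (71.4% in either direction), and overlapped with siNTC for IL6ST, LIFR and STAT3. Without siTAZ #1 replicate 2, the library with the near-missing counts, the log2 fold change of CLCF1 with siTAZ #1 was 0.73. The members called changed when 1 library was left out. The number of all genes called in those fits is not given here.

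**Figure D1:**
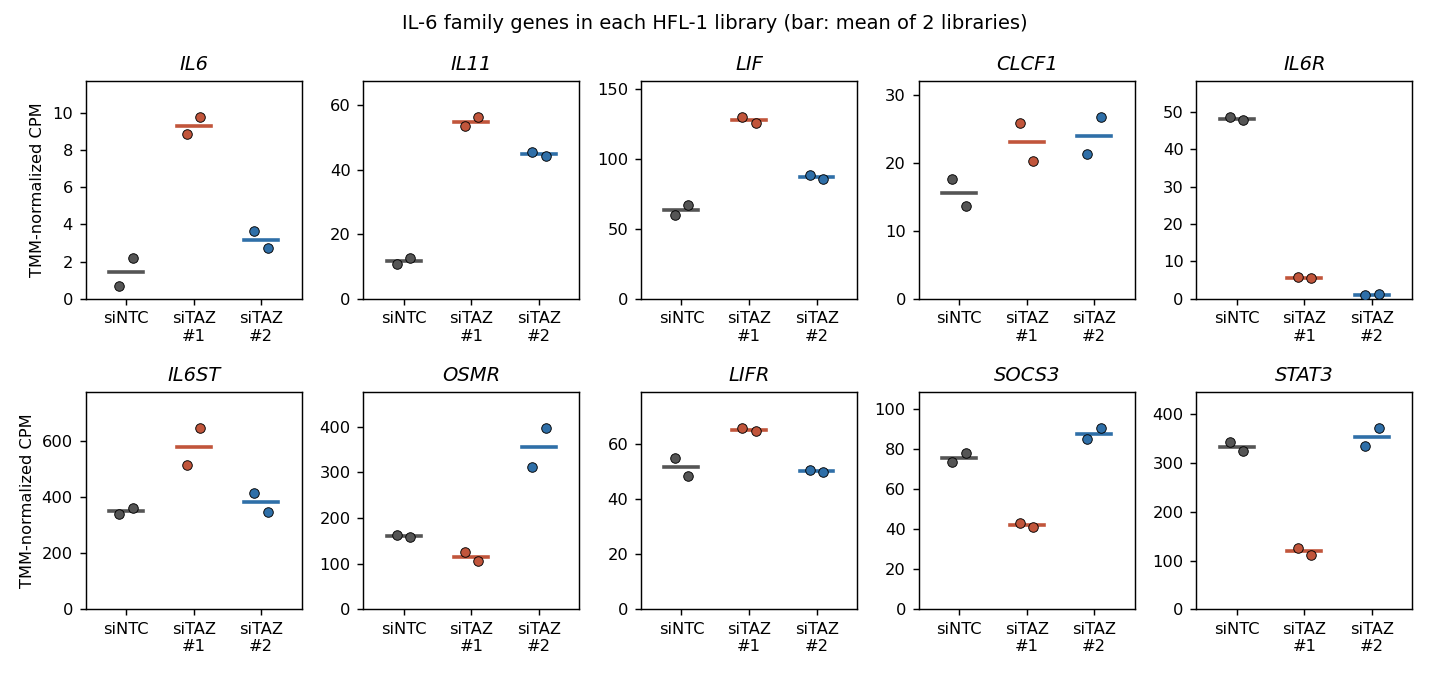
TMM-normalized CPM of the 10 IL-6 family genes in each library, with 1 panel per gene, each with its own vertical axis from 0. Points are libraries and bars are means of 2 libraries. IL6R is at 47.8 to 48.5 CPM with siNTC and under 6 CPM in every siTAZ library, and STAT3 is low in the siTAZ #1 libraries alone.

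IL6R (chromosome 1, 154377669 to 154441926) encodes the chain that binds IL-6 and gives a cell its direct response to the cytokine. It was at 48.5 and 47.8 CPM in the siNTC libraries (765 and 757 counts), at 5.74 and 5.58 CPM with siTAZ #1 (89 and 182 counts), and at 0.888 and 1.15 CPM with siTAZ #2 (19 counts in each library). The 3 groups did not overlap, and siTAZ #2 gave the lowest values. The log2 fold change was -3.09 (standard error 0.18) with siTAZ #1 and -5.56 (standard error 0.20) with siTAZ #2, which is 8.5-fold and 47.3-fold lower than siNTC. Between the siRNAs, siTAZ #1 was higher by 2.48 on the log2 scale (standard error 0.19). These values chose the family, and the study lists IL6R among the genes lowered by both siRNAs in these same libraries, so they are not tested here. TAZ mRNA itself had the opposite order, with 27.4 ± 1.42 CPM (SD, n = 2) in siTAZ #1 and 44.6 ± 2.14 CPM in siTAZ #2. Of the leukocyte markers, CD68 was lower with siTAZ #2, as was IL6R, while PTPRC was at up to 0.129 CPM and CD14 at up to 0.544 CPM in any library. The part of CD68-expressing cells in the IL6R values was not tested. Over the 6 libraries, among 12004 genes whose mean count reached 50, the log2 CPM of DCLK2, TNFRSF19, RELN, TMBIM6 and ALDH1L2 were closest to those of IL6R, with Pearson r between 0.997 and 0.999. DCLK2 had means of 41.2, 21.8 and 13.2 CPM with siNTC, siTAZ #1 and siTAZ #2, and ALDH1L2 had 135, 53.6 and 30 CPM. These genes were picked for following IL6R over the same libraries. Their order of the groups, the same as for IL6R but over a smaller range, is therefore only a description. A processed pseudogene, IL6RP1, lies on chromosome 9.

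IL6 (chromosome 7, 22765503 to 22771621) encodes the founding cytokine of the family. It was at 0.697 and 2.21 CPM with siNTC, at 8.84 and 9.75 CPM with siTAZ #1, and at 3.65 and 2.72 CPM with siTAZ #2. These rest on few reads, with 11 and 35 counts in the siNTC libraries, for which the exact Poisson intervals at 95% run from 5.49 to 19.7 and from 24.4 to 48.7 counts and cover counting error only. The siNTC libraries thus differed by more than counting error, and all siTAZ libraries lay above both in CPM. For siTAZ #2 replicate 2, with 45 counts, the interval of 32.8 to 60.2 counts overlapped that of siNTC replicate 2. IL6 rose with siTAZ #1 (log2 fold change 2.67, standard error 0.51, FDR 0.018). With siTAZ #2 the log2 fold change was 1.13 (standard error 0.51, FDR 0.15). Leaving out siNTC replicate 1, the library with the lower IL6 level, ended the siTAZ #1 call (log2 fold change 2.06, FDR 0.055). Without siNTC replicate 2, the log2 fold change with siTAZ #2 was 2.17, and without siNTC replicate 1 it was 0.51. The genes whose log2 CPM followed IL6 most closely were HEBP2, STARD9, RAC3, UBQLN1 and C17orf79, with Pearson r of 0.987 to 0.994 over the 6 libraries, a description that rests on the same groups. RAC3 had means of 7.18, 17.3 and 10.3 CPM in siNTC, siTAZ #1 and siTAZ #2. The antisense gene IL6-AS1 and STEAP1B overlap IL6 on the opposite strand, and the strand setting of the counting is not given in the sources used here.

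IL11 (chromosome 19, 55875750 to 55881831) encodes a gp130 cytokine that lung fibroblasts secrete in response to TGF-β. It was at 10.8 and 12.7 CPM with siNTC, at 53.5 and 56.2 CPM with siTAZ #1 and at 45.5 and 44.1 CPM with siTAZ #2. It rose 4.67-fold with siTAZ #1 (log2 fold change 2.22, standard error 0.14, FDR 0.00084) and 3.82-fold with siTAZ #2 (log2 fold change 1.93, standard error 0.13, FDR 0.00076). Both calls held in all 16 alternative fits, with FDRs up to 0.025 and 0.018. With siTAZ #2 the fold change of IL11 was above that of the other members, except without siNTC replicate 2, where IL6 had 2.17 and IL11 2.04 on the log2 scale.

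LIF (chromosome 22, 30636442 to 30642748), the leukemia inhibitory factor, lies before RANGAP1 and outside the stretch with near-missing counts. It was at 59.7 and 67.2 CPM with siNTC, at 130 and 126 CPM with siTAZ #1 and at 88.2 and 85.3 CPM with siTAZ #2. LIF rose 2.01-fold with siTAZ #1 (log2 fold change 1.01, standard error 0.09, FDR 0.0023) and 1.37-fold with siTAZ #2 (log2 fold change 0.45, standard error 0.09, FDR 0.018). The siTAZ #2 call for LIF ended when any of 4 libraries was left out: siNTC replicate 1 (FDR 0.13), siNTC replicate 2 (FDR 0.061), siTAZ #2 replicate 1 (FDR 0.089) or siTAZ #2 replicate 2 (FDR 0.079).

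CLCF1 (chromosome 11, 67131639 to 67141648) encodes a cytokine that acts through the CNTF receptor and LIFR. It was at 17.6 and 13.6 CPM with siNTC, at 25.8 and 20.3 CPM with siTAZ #1 and at 21.3 and 26.7 CPM with siTAZ #2. All 4 siTAZ libraries lay above both siNTC libraries, while the siTAZ groups overlapped. Its log2 fold changes were 0.56 and 0.62 (standard error 0.22 for each), with FDRs of 0.125 for siTAZ #1 and 0.082 for siTAZ #2. With siTAZ #2, CLCF1 passed in DESeq2 (FDR 0.028) and in edgeR's exact test (FDR 0.0062), and with siTAZ #1 in neither. When 1 library was left out, its log2 fold change ranged from 0.38 to 0.75 with siTAZ #1 and from 0.43 to 0.80 with siTAZ #2. CLCF1 lies within the span annotated for RAD9A on the opposite strand, so its reads may be shared. By point estimate, the 4 ligand genes were thus higher with each siRNA, and IL11 and LIF passed the test with both.

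**Figure D2:**
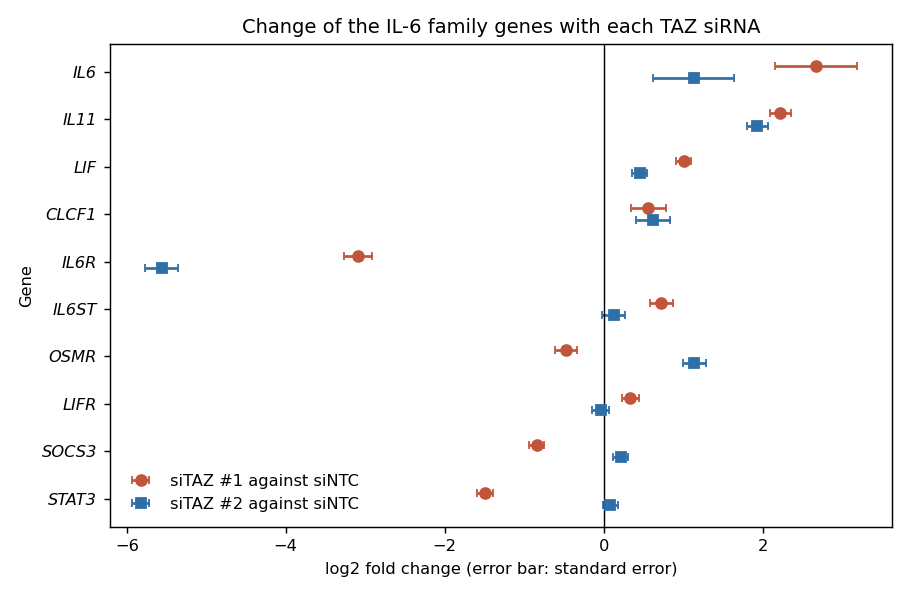
Log2 fold change of each IL-6 family gene against siNTC, with circles for siTAZ #1, squares for siTAZ #2 and bars for the standard error. The 4 ligand genes lie to the right of 0 with both siRNAs, IL6R lies at -3.09 and -5.56, and STAT3 lies at -1.49 with siTAZ #1 and 0.09 with siTAZ #2.

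IL6ST (chromosome 5, 55230923 to 55290850) encodes gp130. It was at 340 and 361 CPM with siNTC, at 513 and 646 CPM with siTAZ #1 and at 416 and 349 CPM with siTAZ #2. IL6ST rose with siTAZ #1 (log2 fold change 0.73, standard error 0.14, FDR 0.02), and the siTAZ #2 libraries overlapped those of siNTC (log2 fold change 0.13, standard error 0.14, FDR 0.55). The siTAZ #1 call of IL6ST did not survive the removal of siNTC replicate 1 (FDR 0.14) or siNTC replicate 2 (FDR 0.12), a replicate block (FDR 0.054) or edgeR's exact test (FDR 0.15). A processed pseudogene, IL6STP1, lies on chromosome 17 and could take or give reads.

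OSMR (chromosome 5, 38845960 to 38945698) encodes the chain that joins gp130 in the oncostatin M receptor. It was at 164 and 158 CPM with siNTC, at 125 and 107 CPM with siTAZ #1 and at 312 and 397 CPM with siTAZ #2. The siTAZ #1 libraries lay below both siNTC libraries and the siTAZ #2 libraries above both. OSMR rose 2.21-fold with siTAZ #2 (log2 fold change 1.14, standard error 0.14, FDR 0.0035), a call that all 16 alternatives kept. With siTAZ #1 the log2 fold change was -0.47 (standard error 0.14, FDR 0.064). It passed the threshold in DESeq2 (FDR 0.0028) and when the stretch from RANGAP1 onward was left out (FDR 0.0094). When 1 library was left out, it ranged from -0.59 to -0.37. RICTOR overlaps OSMR on the opposite strand. The groups differed by -1.62 on the log2 scale (standard error 0.14), siTAZ #1 being lower, which was not tested.

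LIFR (chromosome 5, 38474770 to 38608456), the LIF receptor chain, was at 55 and 48.4 CPM with siNTC, at 65.9 and 64.6 CPM with siTAZ #1 and at 50.6 and 50 CPM with siTAZ #2. Against siNTC the log2 fold changes of LIFR were 0.34 and -0.04 (standard error 0.11 for each), with FDRs of 0.084 for siTAZ #1 and 0.83 for siTAZ #2. The siTAZ #1 libraries lay above both siNTC libraries, and the siTAZ #2 libraries fell between them. Neither value passed the test in any of the 16 alternatives.

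STAT3 (chromosome 17, 40465342 to 40540558) encodes the transcription factor that carries the gp130 signal. It was at 342 and 324 CPM with siNTC, at 126 and 112 CPM with siTAZ #1 and at 335 and 372 CPM with siTAZ #2. It fell 2.81-fold with siTAZ #1 (log2 fold change -1.49, standard error 0.10, FDR 0.00098), and the siTAZ #2 libraries overlapped those of siNTC (log2 fold change 0.09, standard error 0.10, FDR 0.56). The call with siTAZ #1 held in all 16 alternatives (highest FDR 0.026). Without the library with near-missing counts, the log2 fold change of STAT3 was -1.40. Between the siRNAs the difference was -1.57 (standard error 0.10), which was not tested.

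SOCS3 (chromosome 17, 76352859 to 76356158), the feedback inhibitor of gp130 signaling, was at 73.5 and 77.8 CPM with siNTC, at 43 and 41.2 CPM with siTAZ #1 and at 84.9 and 90.5 CPM with siTAZ #2. It fell 1.80-fold with siTAZ #1 (log2 fold change -0.84, standard error 0.10, FDR 0.0041). With siTAZ #2 both libraries lay above siNTC, and the log2 fold change was 0.21 (standard error 0.10, FDR 0.15). That fall did not pass in edgeR's exact test (FDR 0.095) or when siNTC replicate 2 was left out (FDR 0.053). SOCS3 and STAT3 were both low in the siTAZ #1 libraries, at which LIF, IL6 and IL11 had their highest levels.

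Between the siRNAs, the libraries of siTAZ #1 were above those of siTAZ #2 for 6 members and below for 3, with 1 overlapping, against 32.6% and 33% of all genes tested (65.6% in either direction). The differences on the log2 scale, siTAZ #1 minus siTAZ #2, were 2.48 for IL6R, 1.54 for IL6 (standard error 0.48), 0.60 for IL6ST (standard error 0.14), 0.56 for LIF (standard error 0.09), 0.38 for LIFR (standard error 0.11) and 0.29 for IL11 (standard error 0.13). They were -0.06 for CLCF1 (standard error 0.22), -1.06 for SOCS3 (standard error 0.10), -1.57 for STAT3 and -1.62 for OSMR. Since the choice of the family rests on this contrast, the differences are a description.

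To compare levels between members, CPM were divided by the length of the canonical transcript in kilobases. With siNTC, STAT3 had the highest level, 67.7 ± 2.71 CPM per kb (SD, n = 2), followed by IL6ST at 38.8 ± 1.58, OSMR at 29.1 ± 0.733, SOCS3 at 27.7 ± 1.12 and LIF at 16.4 ± 1.37 CPM per kb. CLCF1 at 9.15 ± 1.63 and IL6R at 8.35 ± 0.089 CPM per kb overlapped, as did IL11 at 4.93 ± 0.567 and LIFR at 4.90 ± 0.44 CPM per kb. IL6 had the lowest level, 1.29 ± 0.948 CPM per kb. With siTAZ #1, IL6ST came first at 64.2 ± 10.4 CPM per kb, ahead of LIF at 33.0 ± 0.729, and IL6R came last at 0.982 ± 0.0196 CPM per kb. In that group the libraries of IL11 overlapped with those of STAT3 and of OSMR, and those of SOCS3 with those of CLCF1. With siTAZ #2, STAT3 at 71.8 ± 5.22 and OSMR at 64.2 ± 10.9 CPM per kb overlapped at the top, and IL6R was again last at 0.177 ± 0.0318 CPM per kb. Relative to gp130, IL6R was the less abundant chain in all groups.

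**Figure D3:**
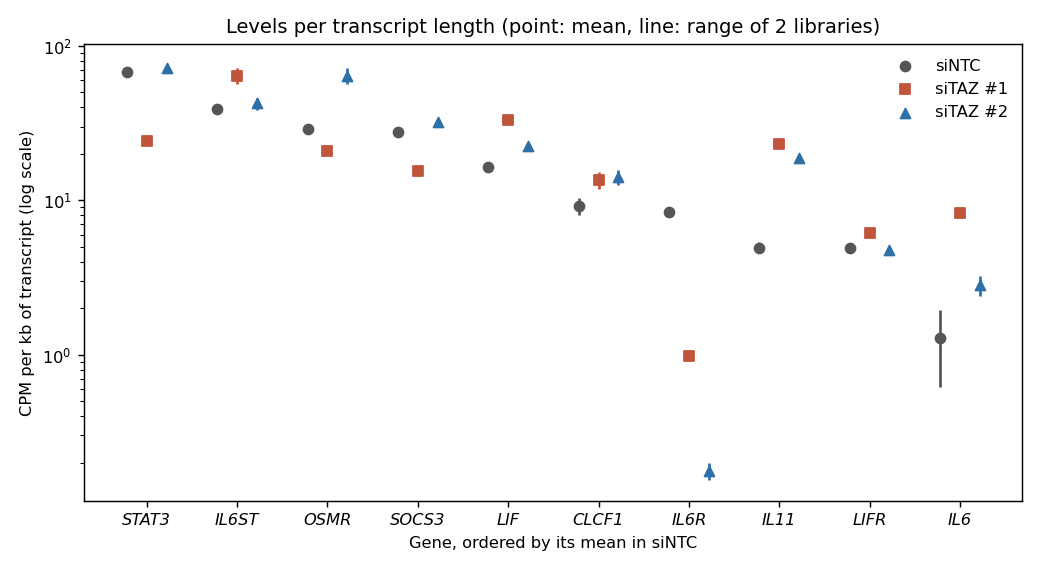
CPM per kb of canonical transcript on a log axis for the 10 genes, ordered by their mean in siNTC, with points for means and lines for the range of 2 libraries. IL6R moves from 8.35 CPM per kb with siNTC to 0.982 and 0.177 CPM per kb with the siRNAs, below every other member.

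Of the other gp130 ligands and receptors, 5 of 11 listed genes passed the filter on low counts. OSM, CNTF, IL27, EBI3, IL31 and CNTFR had at most 6 counts in any library and were not tested, so the ligand of OSMR had 3 counts over all libraries. IL11RA, the receptor of IL-11, had log2 fold changes of -0.35 (FDR 0.17) and -0.03 (FDR 0.92), from 14 and 14.6 CPM with siNTC.

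All 8 JAK-STAT transducers were tested. With siTAZ #1, 1 rose and 2 fell, and with siTAZ #2, 2 rose and 1 fell. Over all genes tested, 10.8% were called higher and 9.78% lower with siTAZ #1, and 14.1% and 14.4% with siTAZ #2. The same shares apply beside the counts of the lists below. JAK1, the main kinase of gp130, rose with both (log2 fold change 0.39, FDR 0.015 with siTAZ #1 and 0.25, FDR 0.046 with siTAZ #2). The siTAZ #2 call of JAK1 did not pass in DESeq2 (FDR 0.067), with RLE scaling (FDR 0.056) or without a filter (FDR 0.11). Nor did it pass with the replicate block (FDR 0.10) or without the stretch from RANGAP1 onward (FDR 0.062). STAT5B fell with both (log2 fold change -0.55, FDR 0.034 and -0.67, FDR 0.014). PTPN11, the phosphatase SHP2 that couples gp130 to the RAS-MAPK pathway, fell with siTAZ #1 (log2 fold change -0.63, FDR 0.018), and GAB1, an adaptor of that branch, rose with siTAZ #2 (log2 fold change 1.04, FDR 0.025). The calls of JAK1, STAT5B, PTPN11 and GAB1 were each lost without either siNTC replicate, with FDRs of 0.085 to 0.25.

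Among the brakes of JAK-STAT signaling, 13 of 14 were tested, and 1 rose with siTAZ #1, while 1 rose and 4 fell with siTAZ #2. With siTAZ #1 the number called lower in edgeR's quasi-likelihood test was 0, and 1 brake, SOCS1, was lower at an unadjusted p under 0.05. SOCS1, which blocks JAK kinases, was at 26.1 and 35.0 CPM with siNTC, 14.8 and 17.2 CPM with siTAZ #1 and 10.9 and 7.37 CPM with siTAZ #2. It fell with siTAZ #2 (log2 fold change -1.74, FDR 0.0064), a call lost without siNTC replicate 2 (FDR 0.051), and with siTAZ #1 its log2 fold change was -0.93 (FDR 0.052). That value of SOCS1 passed with an FDR of 0.00069 in DESeq2, 0.0037 without the stretch from RANGAP1 onward and 0.047 to 0.0498 under 5 other settings. When 1 library was left out, its log2 fold change ranged from -1.14 to -0.72. SOCS4 rose with both (log2 fold change 0.73, FDR 0.018 and 0.58, FDR 0.029), which was lost without either siNTC replicate (FDR 0.12 to 0.16). SOCS2 and the phosphatase gene PTPN1 fell with siTAZ #2 (log2 fold change -0.76, FDR 0.0052 and -0.57, FDR 0.0076), as did PIAS4 (log2 fold change -0.54, FDR 0.043). Without siNTC replicate 1, the FDR with siTAZ #2 was 0.051 for SOCS2, 0.065 for PTPN1 and 0.185 for PIAS4.

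The IL-6 receptor is cut from the cell surface by the proteases ADAM10 and ADAM17, the latter helped by the iRhom proteins of RHBDF1 and RHBDF2. Of these 4 genes, 2 rose with each siRNA, and the other 2 had log2 fold changes that did not pass. RHBDF1 was at 67.8 and 61.4 CPM with siNTC, 97.6 and 88.7 CPM with siTAZ #1 (log2 fold change 0.53, FDR 0.021) and 118 and 131 CPM with siTAZ #2 (log2 fold change 0.95, FDR 0.0026). ADAM10 rose with siTAZ #1 (log2 fold change 0.53, FDR 0.023) and ADAM17 with siTAZ #2 (log2 fold change 0.71, FDR 0.011). Without siNTC replicate 1, ADAM10 with siTAZ #1 had an FDR of 0.16, ADAM17 with siTAZ #2 one of 0.089 and RHBDF1 with siTAZ #1 one of 0.097.

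Of 17 STAT3 target genes, 16 were tested. With siTAZ #1, 6 rose and 1 fell, with a median log2 fold change of 0.08, and with siTAZ #2, 8 rose and 2 fell, with a median of 0.61. VEGFA, the angiogenic growth factor, rose with both siRNAs (log2 fold change 1.02, FDR 0.0017 and 0.77, FDR 0.0026), and so did the transcription factor gene IRF1 (0.71, FDR 0.011 and 1.10, FDR 0.0021) and the chemokine gene CCL2 (1.28, FDR 0.0037 and 0.94, FDR 0.0064). CCL2 lost both calls without siNTC replicate 2 (FDR 0.054 and 0.065) and IRF1 lost that with siTAZ #1 without either siNTC replicate (FDR 0.073 and 0.095). JUNB, an AP-1 subunit, was at 22.3 and 17.3 CPM with siNTC and rose to 81.1 and 78.0 CPM with siTAZ #2 (log2 fold change 2.01, FDR 0.0039). With siTAZ #1 it was at 23.3 and 37.6 CPM (log2 fold change 0.62, FDR 0.14). When 1 library was left out, the latter log2 fold change ranged from 0.23 to 0.92. CEBPB and MYC were named after their values were seen. CEBPB, whose product binds the IL6 promoter, rose with siTAZ #1, from 54.3 and 60.4 CPM to 153 and 164 CPM (log2 fold change 1.46, FDR 0.0014), and had 56.5 and 65.9 CPM with siTAZ #2. MYC fell with siTAZ #2, from 64.0 and 63.5 CPM to 27.8 and 19.6 CPM (log2 fold change -1.43, FDR 0.004), while its value with siTAZ #1 was -0.35 (FDR 0.22). The list's members moved in both directions in both comparisons, and STAT3 mRNA was low with siTAZ #1 alone.

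**Figure D4:**
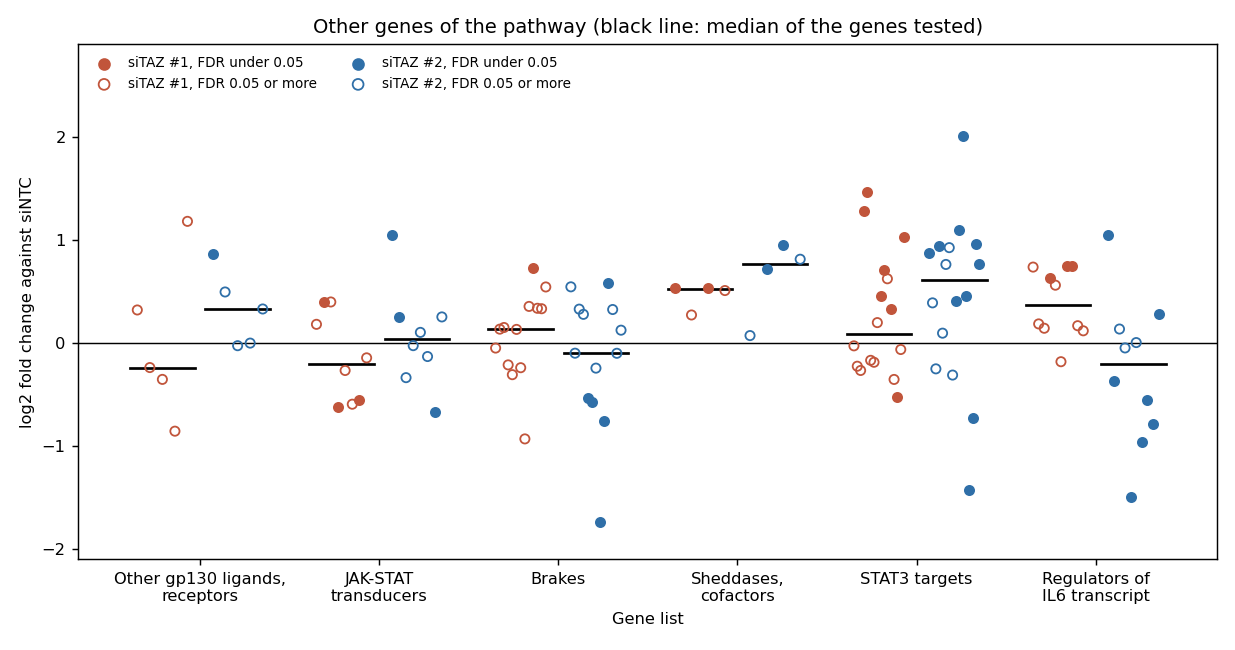
Log2 fold change against siNTC of the 56 tested genes of 6 lists from the pathway, with siTAZ #1 in red and siTAZ #2 in blue. Filled points have an FDR under 0.05, open points do not, and black lines are list medians, which lie at 0.37 with siTAZ #1 and -0.21 with siTAZ #2 for the regulators of the IL6 transcript.

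The 10 regulators of IL6 transcription and mRNA decay were all tested. With siTAZ #1, 3 rose (median log2 fold change 0.37) and none was lower even at an unadjusted p under 0.05. With siTAZ #2, 2 rose and 5 fell (median -0.21). Over all genes tested, the medians were 0.02 and 0.01. NFKBIZ, the nuclear IκB protein that IL6 transcription needs, was at 36.5 and 38.7 CPM with siNTC. With siTAZ #1 it was at 62.8 and 48.1 CPM (log2 fold change 0.56, FDR 0.058). When 1 library was left out, that log2 fold change ranged from 0.35 to 0.74. With siTAZ #2 NFKBIZ was at 13.6 and 13 CPM (log2 fold change -1.49, FDR 0.0024). TNFAIP3 and ZC3H12A, named after their values were seen, encode the NF-kB inhibitor A20 and the RNase that degrades IL6 mRNA. TNFAIP3 rose with siTAZ #1 (log2 fold change 0.74, FDR 0.026) and fell with siTAZ #2 (-0.96, FDR 0.009). ZC3H12A rose with siTAZ #1 (0.74, FDR 0.018) and fell with siTAZ #2 (-0.56, FDR 0.034). ARID5A, which stabilizes IL6 mRNA, rose with siTAZ #2 (log2 fold change 1.04, FDR 0.026), NFKBIA rose with siTAZ #1 (0.63, FDR 0.012), and ZFP36, which promotes mRNA decay, fell with siTAZ #2 (-0.79, FDR 0.029). Without siNTC replicate 1, FDRs were 0.071 and 0.057 for TNFAIP3, 0.11 and 0.14 for ZC3H12A with the 2 siRNAs, 0.15 for ARID5A and ZFP36 and 0.094 for NFKBIA, and without siNTC replicate 2, the FDR of TNFAIP3 with siTAZ #1 was 0.15.

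Over the 56 tested genes of the 6 lists, 13 rose and 3 fell with siTAZ #1, and 16 rose and 12 fell with siTAZ #2, beside 20.6% and 28.5% of all genes called in either direction. The lists were written with earlier results of these data known. Leaving out siNTC replicate 1 brought the calls down to 3 and 9 for the siRNAs, and leaving out siNTC replicate 2 to 2 and 11. It was 25 with siTAZ #1 without siTAZ #1 replicate 1, and with siTAZ #2 it was 14 without siTAZ #2 replicate 1 and 13 without siTAZ #2 replicate 2. Of 35 calls on pathway genes with values examined in each alternative, 8 were kept in all 16. These were VEGFA with both siRNAs, CEBPB with siTAZ #1, and RHBDF1, JUNB, IRF1, NFKBIZ and MYC with siTAZ #2. The genes examined were those named by rule, those with the siRNAs on opposite sides of siNTC, and CEBPB and MYC. Since CEBPB and MYC were named after their values were seen and other called genes were not examined, this is not a share of all pathway calls.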

How the data were processed

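RNA sequencing was carried out in 6 libraries of HFL-1 cells, 2 each for siNTC, siTAZ #1 and siTAZ #2, 48 h after transfection. The authors sequenced on the Ion Proton, used TMAP for alignment to hg19 and HTSeq 0.6.1 for counting (per the labels and methods), and the deposited values are raw read counts without normalization. The strand setting and counting mode are not given in the sources used here. Here, 13 entries with a date in place of a symbol were left out (0.0458% to 0.0506% of a library). With edgeR 4.0.16 in R 4.3.3, genes were filtered by filterByExpr, TMM factors were set and the quasi-likelihood test was run in 1 fit of 6 libraries, with Benjamini-Hochberg adjustment over 14053 genes and a threshold of FDR 0.05. A standard error is the size of the log2 fold change divided by the root of F. On simulated counts with 200 genes changed 2-fold, 92.5% were found for siTAZ #1 and 89% for siTAZ #2 among 13830 genes. False calls numbered 5 for siTAZ #1 and 9 for siTAZ #2.

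The members and lists were chosen with earlier results of these data known. Of each list, up to 4 genes with the largest mean change among those called were named by rule, and a few genes and promoters are not reported here. Alternatives were DESeq2 1.42.0, edgeR's exact test, other scaling (RLE, upper quartile, library totals), no filter or a minimum mean count of 50, fits of 4 libraries, the replicate number as a block, omission of each library, omission of the stretch from RANGAP1 onward, and an FDR of 0.1. Positions, transcript lengths and promoters come from GRCh37 with GENCODE v44lift37, in which 21478 of 23368 entries were found, 1922 through a synonym. Between replicates, counts differed beyond Poisson noise, which repeat runs of 1 library can also exceed (mean chi-square per gene 4.28 for siNTC, 63.0 for siTAZ #1, near-missing counts included, and 8.70 for siTAZ #2). With 2 libraries per group, no permutation test can reach the threshold.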

Additional observations from a re-analysis of the deposited data

Results flagged for a closer look

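For 12 of the 66 members and pathway genes tested, both siTAZ #1 libraries lay on one side of the siNTC libraries and both siTAZ #2 libraries on the other, against 13.5% of all genes tested. The difference between the siRNAs was not tested for any of them. Of the members, 2 were among them, written below as siTAZ #1 minus siTAZ #2 on the log2 scale: OSMR at -1.62 and SOCS3 at -1.06. Of the regulators of the IL6 transcript, NFKBIZ differed by 2.05, TNFAIP3 by 1.70, ZC3H12A by 1.30 and NFKB1 by 0.55, with siTAZ #1 higher in each. Of the brakes, SOCS2 differed by 1.11 and SOCS6 by 0.43. Of the transducers, JAK2 differed by 0.73 and TYK2 by -0.40. The STAT3 target HIF1A differed by 0.51.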

How the results depend on the processing

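The number of tested members called was 4 to 7 with siTAZ #1 and 2 to 5 with siTAZ #2 when 1 library was left out, against 6 and 3 with all libraries. The number of pathway genes called was 2 to 25 and 9 to 34, against 16 and 28. With siTAZ #1, edgeR's exact test on 4 libraries called 3 pathway genes and an FDR threshold of 0.1 called 25. With the replicate block, 5 and 3 members and 7 and 19 pathway genes were called with siTAZ #1 and siTAZ #2. Without the stretch from RANGAP1 onward, 7 and 4 members and 23 and 32 pathway genes were called. The replicate numbers share no stated culture or day. Deviations of same-numbered libraries correlated at -0.01 between siNTC and siTAZ #1, at 0.02 between siNTC and siTAZ #2 and at -0.31 between the siRNAs, so the numbers were not taken as pairs. The number of all genes called under each alternative is not given here. The shifts in the number called thus cannot be taken as particular to the members or the pathway genes. The cause of these shifts was not tested. Where 1 library remained in a group, its spread was taken from the other groups.

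Of the 288 values of tested members under the alternatives, 261 kept direction and side of the threshold, 12 newly passed, 11 lost the call and 4 changed sign. The sign changes were in values near 0 with siTAZ #2: IL6ST (-0.0097 to 0.22 without 1 library), LIFR (-0.15 to 0.036 without 1 library, 0.0046 with library totals) and STAT3 (-0.016 to 0.16 without 1 library). Among pathway genes, sign changes were found in GAB1 with siTAZ #1 (-0.13 to 0.42 without 1 library) and, with siTAZ #2, in PTPN11 (-0.14 to 0.049 without 1 library, 0.018 with library totals), ADAM10 (-0.0087 to 0.12), NFKBIA (-0.17 to 0.043) and CEBPB (-0.046 to 0.20). Without 1 library, the IL6R value ranged from -3.11 to -3.07 for siTAZ #1 and from -5.78 to -5.38 for siTAZ #2. Depth limits IL6, with 11 and 35 counts in siNTC, and IL6R, with 19 counts in each siTAZ #2 library.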
